A study of Mus musculus with 6 samples.

Results

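Claudins, cadherins, desmosome proteins and connexins hold neighbouring epithelial cells together, seal the space between them and join their cytoplasm. Their genes were examined in epithelial cells of the embryonic mouse small intestine with and without *Tcf7l1*, which encodes a transcription factor of the WNT pathway. The genes were taken by symbol from the count tables: claudins (*Cldn*), zonula occludens proteins (*Tjp*), numbered cadherins (*Cdh*), connexins (*Gja*, *Gjb* and *Gjc*), plakophilins (*Pkp*), desmogleins (*Dsg*), desmocollins (*Dsc*) and JAM genes, together with *Ocln*, *Marveld2*, *Marveld3*, *Cgn*, *Dsp*, *Jup* and *F11r*. *Cldn18* and *Gja1* were left out. This gave 87 of 23366 genes, made up of 24 claudins, 10 other tight junction genes, 23 cadherins, 15 desmosome genes and 15 connexin genes of the gap junction.

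RNA-sequencing was carried out on 3 *Shh-cre-egfp:Tcf7l1 lox/lox* (mutant) and 3 wild type libraries of small intestine at embryonic day 13.5 (E13.5), each made from 500 sorted EpCAM-positive living cells. No agent was given to either group. In the mutants, Cre is made from the *Shh* locus in the gut epithelium and removes a floxed exon of *Tcf7l1*. The wild type embryos are described without Cre, so the effects of the Cre allele and of the *Tcf7l1* deletion cannot be told apart. Litters, strain background, sex and any pooling of embryos are not given in the sources used here.

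The total count was between 18216537 and 20397278 reads per library, and junction genes took 0.599% to 0.654% of it. Counts were scaled between libraries with edgeR's TMM factors (0.957 to 1.06), and the values below are these normalized counts. Where genes are compared with each other the values are RPKM, reads divided by the TMM-scaled library size and by exon length. A single read was worth 0.932 to 1.11 normalized counts. *Tcf7l1* itself had 438 ± 64.1 normalized counts in wild type and 49.1 ± 21.1 in mutant libraries (SD, n = 3 each), and *Shh*, which carries the Cre, had 481 ± 65.8 and 198 ± 22.6. *Xist* had 0 counts in every wild type library and was present in every mutant library, and the Y-linked *Ddx3y* was present in every wild type library with 0 counts in every mutant library. Sex and genotype thus cannot be told apart, which bears on the X-linked *Cldn2*, *Gjb1* and *Gja6* directly. The first principal component carried 54.2% of the variance and set the groups apart. The chi-square per gene was 6.42 to 20.8 between libraries of a group against 31.0 to 66.7 between groups.

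The sorted cells carried epithelial markers in all libraries. The sum over *Epcam*, *Krt8*, *Krt18*, *Krt19*, *Cdx2* and *Vil1* was 126114 to 134777 normalized counts in the wild type and 117522 to 121889 in the mutant, with *Krt18* and *Cdx2* called lower. Markers of other cells were low. The 10 mesenchyme markers summed to 1257 to 1528 normalized counts in wild type and to 967 to 1012 in the mutant, none of them called. The 4 mesothelium markers summed to 767 to 972 and 556 to 787, with *Msln* and *Upk1b* called lower. The 5 smooth muscle markers summed to 176 to 230 and 187 to 1065, the last in mutant 3, and the 7 neural markers to 211 to 255 and 213 to 412. The 8 endothelium markers summed to 13.1 to 39.9 and 14.4 to 45.6 with *Kdr*, *Tek* and *Emcn* at 0. The 10 blood and immune markers summed to 59.1 to 109 and 64.2 to 106. The globins *Hbb-b1*, *Hba-a1*, *Hba-a2* and *Hbb-bh1* and the leukocyte gene *Ptprc* were at 0. Only uniquely mapping reads were counted, so a 0 does not tell absence for genes with near-identical copies. The globin *Hbb-y* had 20.6, 28.0 and 20.0 normalized counts in wild type and 4.1, 5.3 and 6.6 in mutant libraries (edgeR, adjusted p = 0.0281, not called). *Cd68* had 38.4, 60.6 and 85.5 against 100, 88.4 and 47.6, with overlap. In sorted bulk cells, fewer cells of a type and less RNA per cell cannot be told apart.

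As background, epithelial cells are joined at their sides by a stack of junctions. The tight junction lies nearest the lumen; its claudins and occludin form strands across the membrane that decide which ions and solutes pass between cells, and zonula occludens proteins tie the strands to actin. Below it, the classical cadherins of the adherens junction bind their like on the next cell and are anchored by catenins, desmosomal cadherins are anchored to keratin filaments through plakoglobin, plakophilins and desmoplakin, and connexins form channels for ions and small molecules. TCF7L1 is a DNA-binding protein of the TCF/LEF family, whose members bind beta-catenin, which is shared by the WNT pathway and the adherens junction.

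Of the 87 genes, 16 had 0 counts in all libraries, 32 had counts but did not pass edgeR's filter on low counts, and 39 were tested. The 16 included *Cldn5* and *Cdh5*, the claudin and cadherin of endothelium, and the desmosomal cadherins *Dsc1*, *Dsc3*, *Dsg1a*, *Dsg1b* and *Dsg3*, best known from skin. Others at 0 were *Cldn13*, *Cldn24*, *Cldn26*, *Cdh7*, *Cdh19*, *Cdh22*, *Gja4* and *Gja5*. At these depths, 3 reads in a library would have stood at 2.80 to 3.32 normalized counts, and a count of 0 does not tell absence from levels below that. No library held more than 48 reads of any of the 32 genes that were not tested, and their highest mean level was 0.198 RPKM. Among them *Gjc3* had 0, 0 and 0 reads in wild type and 3, 9 and 7 in mutant libraries. It was singled out after its values were seen.

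A gene was called at an adjusted p under 0.01 (quasi-likelihood test of edgeR, adjusted by Benjamini-Hochberg across the 12501 genes tested), a log2 fold change of 0.5 or more in size and at least 50 normalized counts on average. By this rule 5 of the 39 tested junction genes were lower in the mutant, the claudin *Cldn6*, the cadherins *Cdh1* and *Cdh3*, the scaffold *Tjp1* and the connexin *Gjc1*. That was 12.8% of the tested junction genes beside 5.83% of all tested genes called lower. None was called higher, beside 2.78% of all tested genes (8.62% in either direction). DESeq2 called 5 of the 87 lower and 0 higher, beside 3.38% and 1.75% of all 23366 genes. At an unadjusted p under 0.05, 6 junction genes were higher and 11 lower by edgeR. No share of all tested genes was taken at this cut, so these counts and those at this cut by junction type below have no background. With an adjusted p under 0.05 and no size limit, 8 were lower and 2 higher, where the shares of all tested genes were 15.1% and 13.6% (28.7% in either direction). The 3 libraries of each group did not overlap for 11 junction genes that were lower and 7 that were higher in the mutant, 18 of 39 in all, and 43% of all tested genes were likewise apart (22.2% lower, 20.8% higher). The median log2 fold change was -0.11 over the 39 junction genes and -0.04 over all tested genes.

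**Figure D1:**
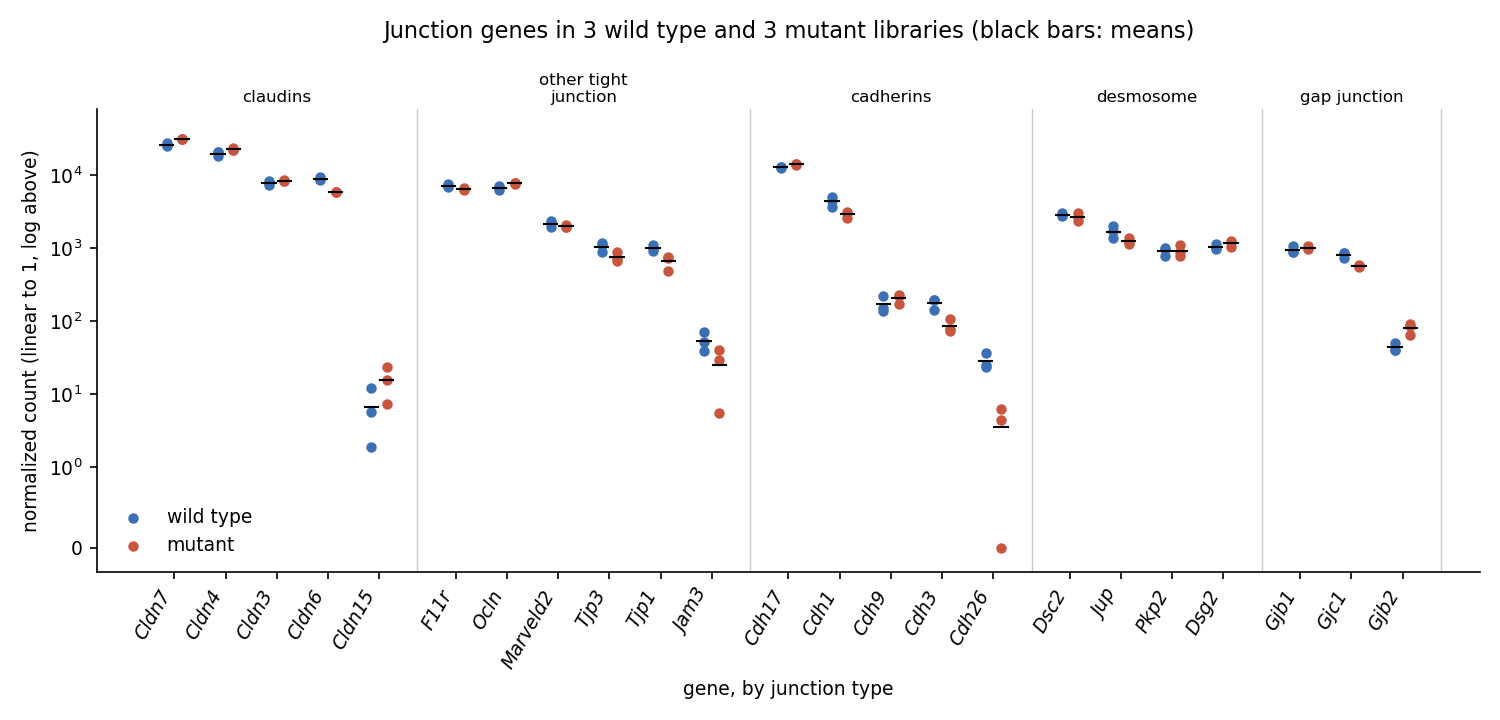
Normalized counts of 23 junction genes in each of the 3 wild type (blue) and 3 mutant (red) libraries, with black bars for group means. The vertical axis is linear up to 1 and logarithmic above, and genes are grouped by junction type. Reads per gene depend on gene length, so only the colours within a gene should be compared: *Cldn6*, *Cdh1*, *Cdh3*, *Tjp1* and *Gjc1* have all red points below all blue points, and *Cldn7* and *Cldn4* have all red points above.

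A few genes made up most of the RNA of the claudins examined, which leave out *Cldn18*. Among those few *Cldn6* fell while *Cldn7* and *Cldn4* had somewhat higher values. In wild type libraries *Cldn7* stood at 686 ± 39.6 RPKM, *Cldn4* at 556 ± 39.3, *Cldn3* at 316 ± 19.3 and *Cldn6* at 301 ± 13.5. The ranges of *Cldn3* and *Cldn6* overlapped there, and the other neighbours in this order did not. In mutant libraries *Cldn7* stood at 811 ± 1.69, *Cldn4* at 643 ± 26.8, *Cldn3* at 339 ± 5.06 and *Cldn6* at 201 ± 0.353 RPKM, so that *Cldn3* and *Cldn6* no longer overlapped. *Cldn23* followed at 106 and 98.9 RPKM and *Cldn8* at 71.7 and 62.8. *Cldn3* and *Cldn4* encode the receptors of the *Clostridium perfringens* enterotoxin, *Cldn4* and *Cldn7* are widespread claudins of epithelial barriers, and *Cldn6* is known as a claudin of embryonic epithelia.

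*Cldn6* (ENSMUSG00000023906, chr17:23816332-23819413 in mm9, plus strand) had 8558, 8681 and 9298 normalized counts in wild type 1 to 3 and 5898, 5918 and 5903 in mutant 1 to 3. All mutant libraries were below all wild type libraries, and the mutant values lay close together. The level fell to 66.8% of wild type, with a log2 fold change of -0.58 ± 0.07 (SE) and an adjusted p of 1.27e-05 by edgeR. *Cldn6* was the sole junction gene called lower by every other tool, scaling, filter and length correction tried and without each single library, though not where a log2 fold change of 1 was required, its log2 fold change lying between -0.78 and -0.53. Its neighbour *Cldn9*, which ends 138 bases away and runs towards it from the other strand, had 99.4, 85.8 and 137 normalized counts in wild type and 63.2, 133 and 60.8 in mutant libraries. These groups overlapped, and the log2 fold change was -0.32 ± 0.33 (edgeR, adjusted p = 0.502).

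*Cldn7* had 25444, 24996 and 27802 normalized counts in wild type and 30748, 30860 and 30858 in mutant libraries. The mutant libraries were all above, by a log2 fold change of 0.24 ± 0.06 (edgeR, adjusted p = 0.0091), which is below the size required for a call. *Cldn4* had 20363, 18019 and 20477 against 23796, 22099 and 22222, also without overlap, with a log2 fold change of 0.21 ± 0.07 (adjusted p = 0.0296). Scaled by library size alone these became 0.14 and 0.11, with p values adjusted to 0.039 and 0.17, and with the gene-length correction centred on 0 they were 0.10 and 0.06 (0.095 and 0.52). *Cldn3* had 7796, 7270 and 8215 against 8320, 8452 and 8204 normalized counts, with overlap and a log2 fold change of 0.10 ± 0.07 (adjusted p = 0.284) whose sign was negative when scaled by library size alone and with the centred length correction. *Cldn2*, the claudin of a cation-selective pore, lies on the X chromosome and had 400, 379 and 222 against 499, 521 and 406 normalized counts, a log2 fold change of 0.51 ± 0.20 (adjusted p = 0.0646). *Cldn15*, another pore-forming claudin and abundant in the mature intestine, had only 12.2, 1.9 and 5.7 against 7.2, 23.4 and 15.5 normalized counts, with overlap (log2 fold change 1.21 ± 0.78, adjusted p = 0.268).

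Over the 11 tested claudins, 1 was called lower and 0 higher, beside 5.83% and 2.78% of all tested genes. By edgeR 2 more were above at an adjusted p under 0.05, beside 13.6% of all tested genes. At an unadjusted p under 0.05 there were 1 lower and 3 higher. DESeq2 called 1 lower and 0 higher, beside 3.38% and 1.75% of all 23366 genes. Their median log2 fold change was 0.03, and it was negative when scaled by library size alone (-0.08), with a filter at a mean of 50 counts (-0.05) and with the centred length correction (-0.14). *Cldn25*, a gene that RefSeq now names *Cldnd1*, was at 42.6 and 43.3 RPKM. The summed claudin level, without *Cldn18*, was 2101 ± 110 RPKM in wild type and 2220 ± 21.3 in mutant libraries, and the ranges (1988 to 2208 and 2199 to 2242) overlapped.

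Shares of the claudin sum do not depend on how libraries are scaled. *Cldn6* made up 14.3% ± 0.516 of the claudin RPKM in wild type and 9.05% ± 0.0916 in mutant libraries. *Cldn7* made up 32.6% ± 0.763 and 36.5% ± 0.417, and *Cldn4* 26.4% ± 0.870 and 29.0% ± 0.983. *Cldn3*, at 15.0% ± 0.135 and 15.3% ± 0.205, kept nearly the same share, with overlapping ranges. The ratio of *Cldn7* to *Cldn6*, a pair chosen after the values were seen and so given without a test, was 2.30, 2.23 and 2.31 in wild type and 4.03, 4.03 and 4.04 in mutant libraries. *Cldn6* thus lost ground to both leading claudins in each mutant library.

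**Figure D2:**
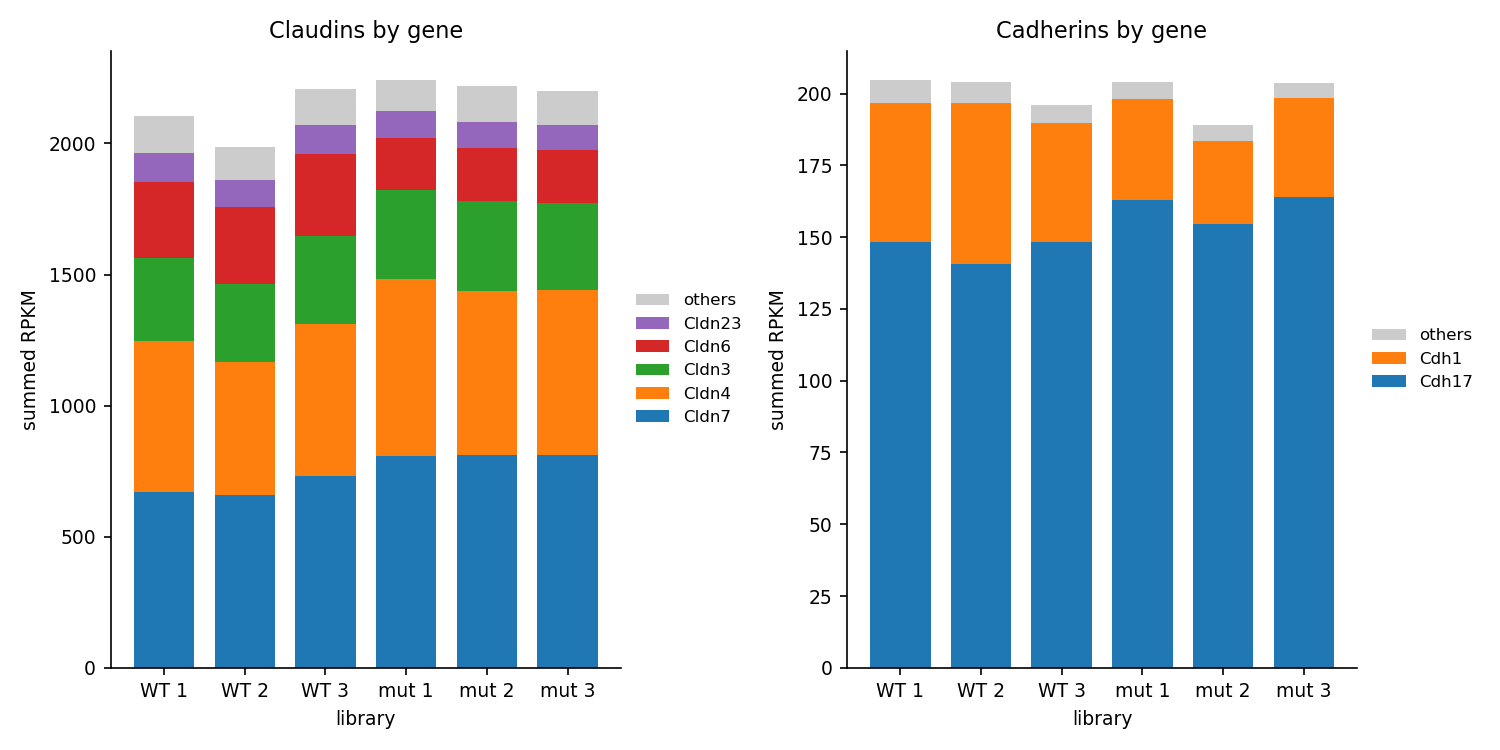
Summed RPKM of the claudins (left, without *Cldn18*) and cadherins (right) in each library, stacked by gene, with WT 1 to 3 and mut 1 to 3 on the horizontal axis. The totals of the groups overlap in both panels, while the red *Cldn6* band narrows from a mean of 14.3% to 9.05% of the claudin sum and the orange *Cdh1* band from 24.0% to 16.4% of the cadherin sum.

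The bases upstream of the most abundant claudins that moved apart are shown to place their genes and the short motifs searched for in them. The TCF/LEF words CTTTGAA or CTTTGAT, and likewise CTTTGTA or CTTTGTT, known to be bound by this factor family, and the E-box CACCTG, known to be bound by the repressors SNAI and ZEB, were searched on both strands over the 250 bases before each RefSeq start, and the words do not overlap each other. Each line gives the strand of the gene 5′ to 3′ in mm9, taken from RefSeq promoters, with motif matches in capitals.
Cldn6, chr17:23816082-23816331, plus strand: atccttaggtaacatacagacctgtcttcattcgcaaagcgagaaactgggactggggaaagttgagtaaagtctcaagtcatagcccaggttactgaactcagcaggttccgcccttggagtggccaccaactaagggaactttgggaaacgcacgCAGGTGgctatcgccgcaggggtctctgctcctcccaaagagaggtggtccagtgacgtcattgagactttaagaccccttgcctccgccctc
Cldn4, chr5:135422805-135423054, minus strand: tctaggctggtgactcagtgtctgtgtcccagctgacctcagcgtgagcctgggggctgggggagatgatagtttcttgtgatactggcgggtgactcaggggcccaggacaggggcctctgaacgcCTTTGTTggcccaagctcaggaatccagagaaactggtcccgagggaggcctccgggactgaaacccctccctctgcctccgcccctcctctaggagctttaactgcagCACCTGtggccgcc
Cldn7, second start, chr11:69778673-69778922, plus strand: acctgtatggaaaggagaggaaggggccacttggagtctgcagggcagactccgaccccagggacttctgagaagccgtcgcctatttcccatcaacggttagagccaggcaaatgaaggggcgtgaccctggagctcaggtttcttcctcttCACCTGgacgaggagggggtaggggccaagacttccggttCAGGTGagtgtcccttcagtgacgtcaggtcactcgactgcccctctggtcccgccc
*Cldn6* held an E-box on its opposite strand 93 bases before the start and no TCF/LEF word. *Cldn4* held CTTTGTT 123 bases and CACCTG 14 bases before the start. *Cldn7* has another start upstream of the one shown, whose 250 bases (chr11:69778031-69778280) held neither, while the stretch shown held E-boxes 97 and 57 bases before its start. *Tjp1* was the other called gene with a sequence at hand (chr7:72516131-72516380) and held neither. Among all 32851 promoters of this length 14.8% held a TCF/LEF word and 17.2% the E-box, against 7 and 14 of the 67 promoters found for 50 junction genes. Of the 31 promoters found for tested junction genes, 4 (12.9%) held a TCF/LEF word and 10 (32.3%) the E-box. These shares were not tested. A match is a run of letters and was not measured as a binding site.

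In the tight junction plaque and its other membrane proteins, the scaffold *Tjp1* fell, and no other gene was called. *Tjp1* encodes ZO-1, which links claudins and occludin to actin (ENSMUSG00000030516, chr7:72441051-72516125, minus strand). It had 1005, 1114 and 903 normalized counts in wild type and 759, 733 and 489 in mutant libraries. All mutant libraries were lower, mutant 3 the most, and the mean fell to 65.6% of wild type, with a log2 fold change of -0.61 ± 0.15 (edgeR, adjusted p = 0.0071). The call was lost without wild type 1 (adjusted p = 0.0266), wild type 2 (0.0418), mutant 2 (0.0115) or mutant 3 (0.0336), where the log2 fold change was -0.61, -0.53, -0.69 and -0.43, and with the length correction (-0.40, adjusted p = 0.0496).

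*Tjp3*, encoding ZO-3, had 1081, 1180 and 870 normalized counts in wild type and 724, 655 and 874 in mutant libraries. Wild type 3 and mutant 3 were alike there, and the log2 fold change of -0.48 ± 0.14 (edgeR, adjusted p = 0.0165) was not called. Of its exon bases, 1.32% overlap *Apba3* on the opposite strand, and the counting of strands is not stated.

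*F11r*, encoding the adhesion protein JAM-A, was the most abundant of these genes at 137 ± 7.03 RPKM in wild type and 123 ± 3.86 in mutant libraries. Its normalized counts were 7052, 6800 and 7520 against 6399, 6204 and 6605, lower in every mutant library but with a log2 fold change of -0.15 ± 0.07 (edgeR, adjusted p = 0.103). *Ocln*, the occludin of the strands, was at 81.7 ± 5.91 and 92.9 ± 1.03 RPKM, with 7147, 6194 and 6846 against 7564, 7680 and 7729 normalized counts (log2 fold change 0.19 ± 0.07, adjusted p = 0.0575). Over the alternative fits its log2 fold change was 0.08 to 0.41, and the adjusted p over all fits 0.0016 to 0.333. *Marveld2*, encoding tricellulin of three-cell corners, had 1953, 2173 and 2343 against 1952, 1955 and 2039, with overlap (log2 fold change -0.12 ± 0.09, adjusted p = 0.315). *Jam3*, a JAM protein also made by cells outside epithelia, had 69.4, 39.2 and 51.3 against 29.0, 39.4 and 5.5 normalized counts, with overlap (log2 fold change -1.10 ± 0.56, adjusted p = 0.153). *Cgn*, encoding cingulin, had 661 ± 65.2 and 534 ± 71.3 normalized counts (adjusted p = 0.107). Of the 9 tested genes of this type 1 was called lower and 0 higher, beside 5.83% and 2.78% of all tested genes. At an adjusted p under 0.05, 2 were lower, beside 15.1% of all tested genes, and the median log2 fold change was -0.15. At an unadjusted p under 0.05 edgeR gave 4 lower and 1 higher. DESeq2 called 1 lower and 0 higher, beside 3.38% and 1.75% of all 23366 genes.

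Among the cadherins, *Cdh1* and *Cdh3* fell while the more abundant *Cdh17* did not. *Cdh1* encodes E-cadherin, the cadherin of epithelial adherens junctions (ENSMUSG00000000303, chr8:109127251-109194146, plus strand). It had 4331, 4992 and 3671 normalized counts in wild type and 3136, 2578 and 3060 in mutant libraries. No mutant library reached a wild type one, and the mean fell to 67.5% of wild type (log2 fold change -0.57 ± 0.10, edgeR, adjusted p = 0.00102). Without wild type 2, the highest library, the log2 fold change was -0.45, and without mutant 2, the lowest, it was -0.48, both short of the size required, and with the length correction it was -0.33 (adjusted p = 0.0142).

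*Cdh3*, encoding P-cadherin, lies 46442 bases before *Cdh1* on the same strand (ENSMUSG00000061048, chr8:109034791-109080808). It had 141, 194 and 195 normalized counts in wild type and 77.7, 72.4 and 105 in mutant libraries, again without overlap. The mean fell to 48.2% of wild type, with a log2 fold change of -1.05 ± 0.25 (edgeR, adjusted p = 0.00571). The call was lost without wild type 2, wild type 3, mutant 1 or mutant 2, where the log2 fold change was -0.98, -0.96, -0.99 and -0.95 and the adjusted p 0.0298, 0.0161, 0.0242 and 0.0280, and with the length correction (-0.84, adjusted p = 0.0193).

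*Cdh17*, encoding the intestinal LI-cadherin, had 12954, 12294 and 12965 normalized counts in wild type and 14221, 13508 and 14327 in mutant libraries. Every mutant library was above, with a log2 fold change of 0.14 ± 0.06 that did not pass the test (edgeR, adjusted p = 0.112). Over the alternative fits the log2 fold change of *Cdh17* was 0.03 to 0.37, and the adjusted p over all fits 0.0016 to 0.667. The exons of *Cdh17* and *Cdh1* span 4474 and 4574 bases, so their reads can be set side by side almost directly. *Cdh17* stood at 146 ± 4.40 RPKM in wild type and 161 ± 5.10 in mutant libraries, and *Cdh1* at 48.5 ± 7.40 and 32.8 ± 3.39. The ratio of the pair, chosen after the values were seen, was 3.06, 2.52 and 3.61 in wild type and 4.64, 5.36 and 4.79 in mutant libraries. *Cdh17* made up 72.4% ± 3.33 of the cadherin RPKM in wild type and 80.7% ± 1.02 in mutant libraries, and *Cdh1* 24.0% ± 3.24 and 16.4% ± 1.03. The summed level was 202 ± 4.73 and 199 ± 8.57 RPKM, with overlap.

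The remaining tested cadherins were scarce. *Cdh9* had 221, 152 and 138 against 228, 220 and 173 normalized counts (log2 fold change 0.28 ± 0.22, edgeR, adjusted p = 0.375). *Cdh26* had 36.6, 23.3 and 24.7 in wild type and 6.2, 0 and 4.4 in mutant libraries. These were apart, with a log2 fold change of -2.94 ± 0.80 (adjusted p = 0.0125). The gene missed both the adjusted p and the count required for a call. *Cdh2*, the N-cadherin of neural and mesenchymal cells, had 29.1, 41.0 and 20.0 against 13.5, 19.2 and 11.1 normalized counts (log2 fold change -1.04 ± 0.57, adjusted p = 0.187). The summed mesenchyme markers given above were also lower in every mutant library. Most of that sum was *Vim*, at 1252 ± 119 and 913 ± 49.4 normalized counts. Of the other tested mesenchyme markers *Col3a1* was lower without overlap, and *Pdgfrb*, *Lum* and *Postn* overlapped. The smooth muscle markers went the other way with overlap, *Acta2* and *Tagln* at log2 fold changes of 1.52 ± 0.42 and 1.31 ± 0.41 (edgeR, adjusted p = 0.0142 and 0.0261). Their highest values were in mutant 3. The mesothelium sums overlapped between the groups, with *Msln* and *Upk1b* called lower and *Upk3b* at 374 ± 57.3 and 488 ± 116. The part of any of these cell types in the values of such scarce cadherins was not tested. Of the 8 tested cadherins 2 were called lower and 0 higher, by edgeR and by DESeq2. By edgeR 5.83% of all tested genes were called lower and 2.78% higher, and by DESeq2 3.38% and 1.75% of all 23366 genes. At an unadjusted p under 0.05 edgeR gave 3 lower and 1 higher. The median log2 fold change was -0.80, and -0.23 over those left by a filter at a mean of 50 counts.

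No desmosome gene was called in either direction, where 8.62% of all tested genes were. The closest to a call was the plaque protein that the desmosome shares with the adherens junction. *Jup*, encoding plakoglobin, had 1685, 1984 and 1360 normalized counts in wild type and 1357, 1117 and 1220 in mutant libraries. The groups were apart by 2.61 normalized counts, between wild type 3 and mutant 1, with a log2 fold change of -0.44 ± 0.12 (edgeR, adjusted p = 0.0144). It would have been called when scaled by library size alone (-0.55, adjusted p = 0.0098) or without wild type 3 (-0.56, adjusted p = 0.00132). The desmosomal cadherins of simple epithelia had overlapping groups. *Dsc2* had 3006, 2737 and 2828 against 2614, 2322 and 3054 normalized counts, and *Dsg2* had 1003, 1136 and 952 against 1190, 1043 and 1226. The log2 fold changes were -0.10 ± 0.09 and 0.16 ± 0.11 (adjusted p = 0.450 and 0.286), and that of *Dsc2* was 0.11 with the length correction. The plaque proteins *Pkp2* (plakophilin 2) and *Dsp* (desmoplakin) had log2 fold changes of 0.01 ± 0.14 and -0.03 ± 0.09 (adjusted p = 0.965 and 0.847). *Dsp* had 1287, 1201 and 1185 against 1201, 1158 and 1241 normalized counts, within 1.02-fold in the means.

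Of the 7 tested desmosome genes 1 was lower and 0 were higher at an adjusted p under 0.05 by edgeR, beside 15.1% and 13.6% of all tested genes. The counts at an unadjusted p under 0.05 were the same. DESeq2 called 0, where it called 3.38% of all 23366 genes lower and 1.75% higher. Their median log2 fold change was -0.07, and their summed level was 72.8 ± 6.24 and 66.5 ± 6.32 RPKM with overlap. *Dsc2* took the largest share, 38.3% ± 3.43 and 38.8% ± 1.90. The keratins to which desmosomes attach in such an epithelium were lower in the mutant: *Krt18* was called at -0.54 ± 0.07 (adjusted p = 2.74e-05), and its partners *Krt8* and *Krt19* stood at -0.32 ± 0.06 and -0.49 ± 0.06 (1.05e-03 and 2.79e-05), short of the size required.

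Among the connexins examined here, which leave out *Gja1*, *Gjb1* was the most abundant and *Gjc1* was the one called lower. *Gjc1* encodes connexin 45 (ENSMUSG00000034520, chr11:102660893-102681014, minus strand) and had 844, 726 and 858 normalized counts in wild type and 557, 576 and 552 in mutant libraries. All mutant libraries were lower and close to each other, at 69.4% of the wild type mean, with a log2 fold change of -0.53 ± 0.12 (edgeR, adjusted p = 0.00427). The call was lost without any one library but wild type 2. The adjusted p was 0.0258 without wild type 1, 0.0104 without wild type 3, 0.0187 without mutant 1, 0.0140 without mutant 2 and 0.0195 without mutant 3, at log2 fold changes of -0.55 to -0.47. It was also lost with the length correction (-0.31, adjusted p = 0.0704).

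*Gjb1*, encoding connexin 32 and X-linked, had 867, 882 and 1054 against 984, 1076 and 952 normalized counts, with overlap (log2 fold change 0.10 ± 0.11, edgeR, adjusted p = 0.527, and of negative sign when scaled by library size alone and with the centred length correction). It stood at 28.0 ± 3.12 and 30.1 ± 1.92 RPKM, and *Gjc1* at 8.29 ± 0.742 and 5.75 ± 0.130. *Gjb2*, encoding connexin 26, had 49.7, 40.1 and 39.9 against 83.9, 63.9 and 89.6 normalized counts. These groups were apart upwards, but the difference did not pass the test (log2 fold change 0.87 ± 0.34, adjusted p = 0.0673). Of the 4 tested connexins 1 was called lower and 0 higher by edgeR and by DESeq2. By edgeR 5.83% of all tested genes were called lower and 2.78% higher, and by DESeq2 3.38% and 1.75% of all 23366 genes. At an unadjusted p under 0.05 there were 2 connexins lower and 1 higher. The summed level of the connexins, without *Gja1*, was 39.9 ± 3.30 and 39.2 ± 1.55 RPKM, in which the share of *Gjc1* was 20.8% ± 1.46 and 14.7% ± 0.362.

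**Figure D3:**
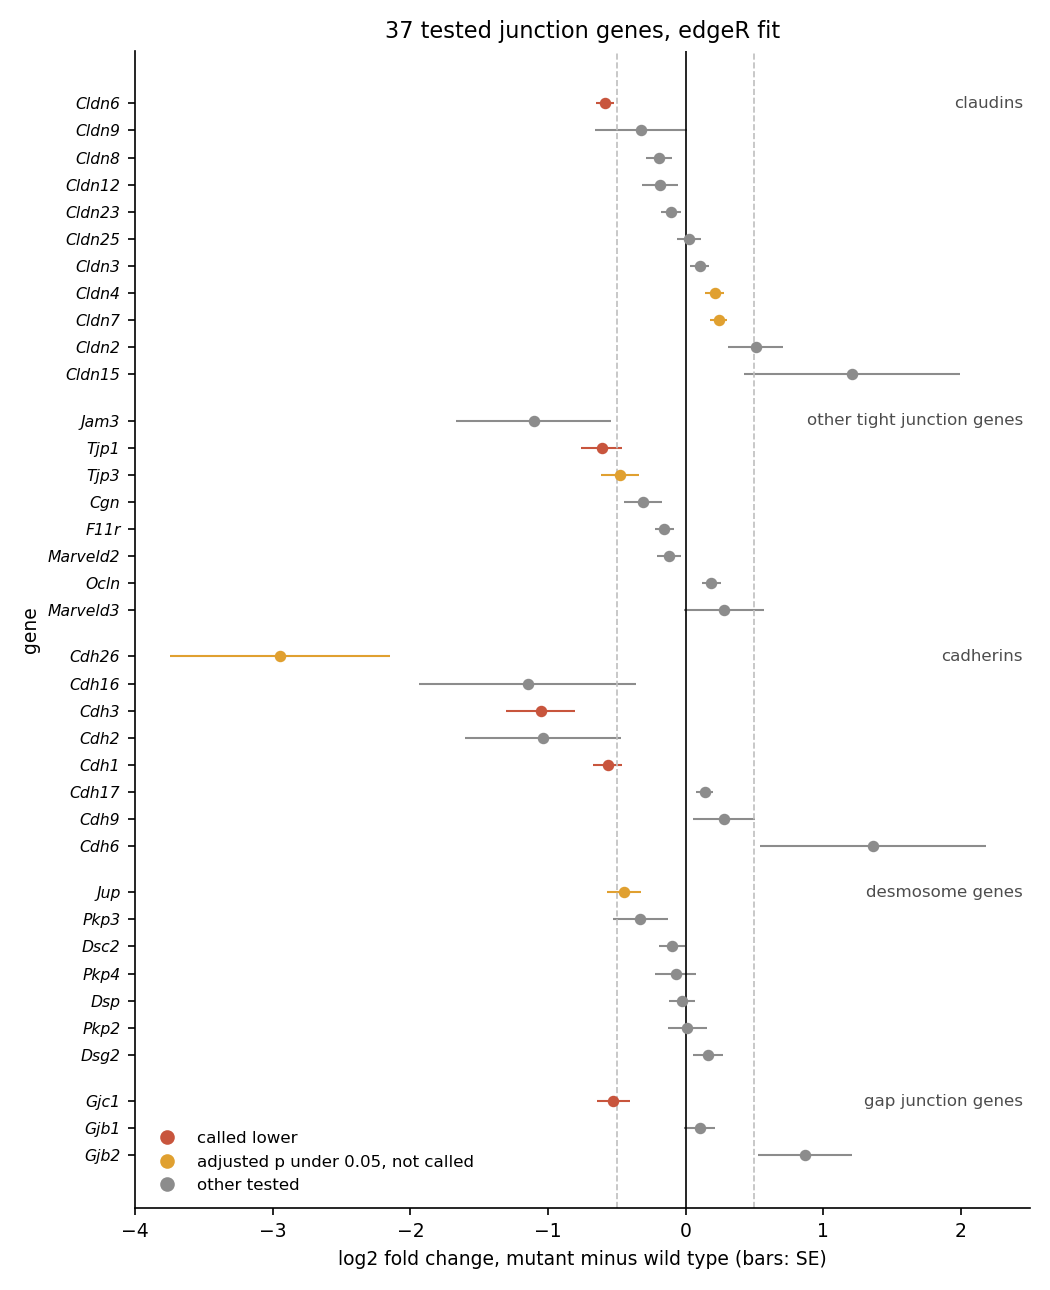
Log2 fold change, mutant minus wild type, of 37 of the 39 tested junction genes by junction type, with bars for the SE and dashed lines at the size required for a call. The 5 genes called lower are red, the 5 with an adjusted p under 0.05 that were not called are orange, and wide bars mark scarce genes such as *Cdh26* (-2.94 ± 0.80).

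Partner genes that anchor or order the junctions were examined in the same fit. Of 78 written, 65 were tested, and 5 were called lower and 2 higher, that is 7.69% and 3.08% beside 5.83% and 2.78% of all tested genes. At an adjusted p under 0.05, 17 were lower and 5 higher, where the shares of all tested genes were 15.1% and 13.6%. Their median log2 fold change was -0.21, and -0.04 over all tested genes. Among those lower at an adjusted p under 0.05 were catenins that link the tail of E-cadherin to actin. *Ctnna1* (alpha-catenin) had 6480, 6636 and 5973 against 4818, 4343 and 4781 normalized counts, a log2 fold change of -0.45 ± 0.07 (edgeR, adjusted p = 3.61e-04). *Ctnnb1* (beta-catenin) had 11176, 12362 and 10347 against 9020, 8658 and 9248 (-0.33 ± 0.07, adjusted p = 0.00364). Both were lower in every mutant library and short of the size required. *Ctnnd1* (p120-catenin), which keeps cadherins at the membrane, had a log2 fold change of 0.07 ± 0.09 (adjusted p = 0.563).

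Among polarity genes, *Llgl1*, a basolateral determinant, fell from 882, 762 and 618 to 286, 404 and 311 normalized counts (log2 fold change -1.18 ± 0.16, edgeR, adjusted p = 1.05e-04). *Inadl*, the older name of *Patj*, which binds the zonula occludens and Crumbs proteins, fell from 850, 995 and 822 to 581, 666 and 601 (-0.53 ± 0.12, adjusted p = 0.0044). *Pard6b*, of the apical PAR complex, rose from 2085, 1855 and 1556 to 2917, 2705 and 2912 (0.63 ± 0.10, adjusted p = 2.46e-04). Of 31 tested genes of the zonula occludens and polarity 2 were thus called lower and 1 higher (6.45% and 3.23%). Of 5 nectins and relatives, *Pvr* rose from 157, 124 and 202 to 494, 382 and 496 normalized counts (1.51 ± 0.20, adjusted p = 5.95e-05), the largest rise among the partner genes. *Epcam*, the gene of the protein used for the sort and a known binding partner of claudin 7, was at 50958, 47961 and 57036 against 60360, 64100 and 60548 (0.25 ± 0.07, adjusted p = 0.013), not called.

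Of the 13 genes listed for epithelial identity and its loss, 8 were tested and 2 were called lower, where 5.83% of all tested genes were. *Grhl3*, a grainyhead factor of epithelial barriers, fell from 509, 531 and 375 to 124, 144 and 112 normalized counts (log2 fold change -1.90 ± 0.19, edgeR, adjusted p = 3.47e-06). *Esrp2*, a splicing factor of epithelial cells, fell from 605, 656 and 510 to 382, 294 and 341 (-0.80 ± 0.15, adjusted p = 0.00133). Its relative *Esrp1* had a log2 fold change of 0.03 ± 0.10 (adjusted p = 0.818). The repressor *Snai2* was at 15.0, 21.4 and 11.4 against 17.6, 11.7 and 21.0 normalized counts, with overlap.

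The length of genes moved with the change in these libraries. With all tested genes put into 5 classes of equal size from the shortest to the longest exons, the median log2 fold change was 0.14, 0.01, -0.10, -0.14 and -0.13. The tested claudins had a median of 1948 exon bases and the other tested junction genes 4108.5, while the called genes *Cldn6*, *Cdh3*, *Cdh1*, *Gjc1* and *Tjp1* had 1506, 3995, 4574, 5003 and 7360. *Cldn6* lies in the shortest class, where the median was 0.14 and 3.36% of the genes were called lower. With a per-library correction for length only *Cldn6* of the 39 junction genes was called, and with the correction centred on 0 in each library *Cldn6* and *Cdh1* were. In these fits 3.27% and 5.62% of all tested genes were called lower, so the share of junction genes was no longer above that of all tested genes. Any further part of gene length in the calls, that of *Cldn6* included, was not tested.

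**Figure D4:**
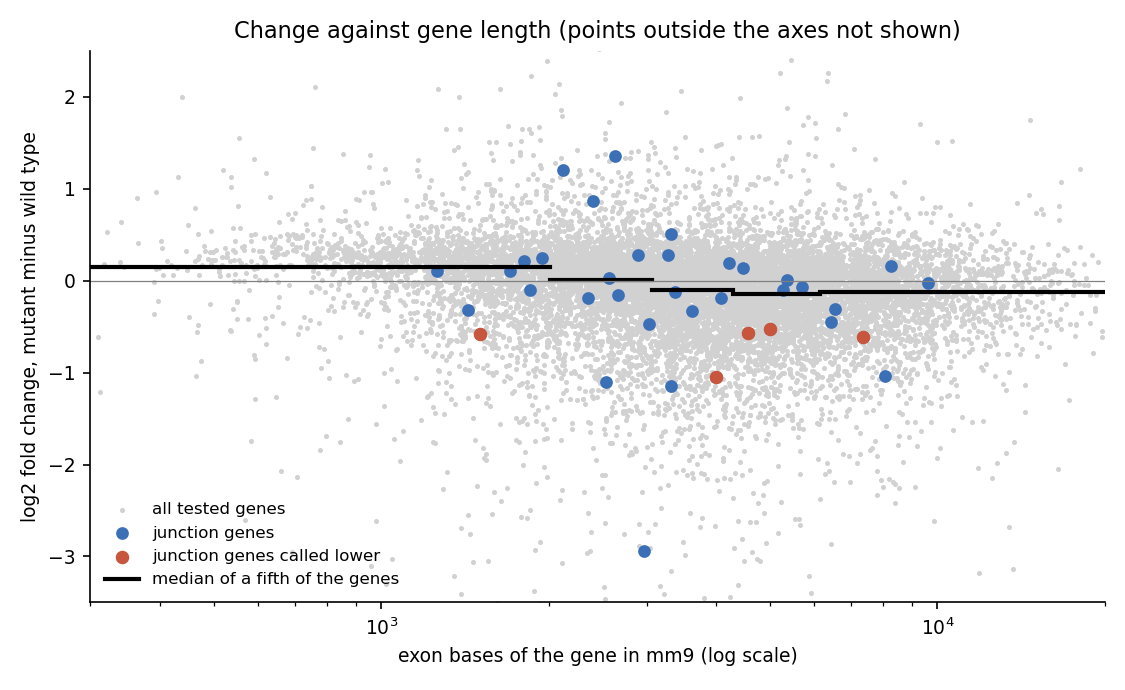
Log2 fold change, mutant minus wild type, against exon bases (log axis) for the tested genes (grey) and 37 of the 39 tested junction genes (blue, and red where called lower), with black lines for the median of each of 5 length classes. The medians step from 0.14 in the shortest class to -0.13 in the longest, and the leftmost red point is *Cldn6*, at -0.58 in the shortest class.

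**Figure D5:**
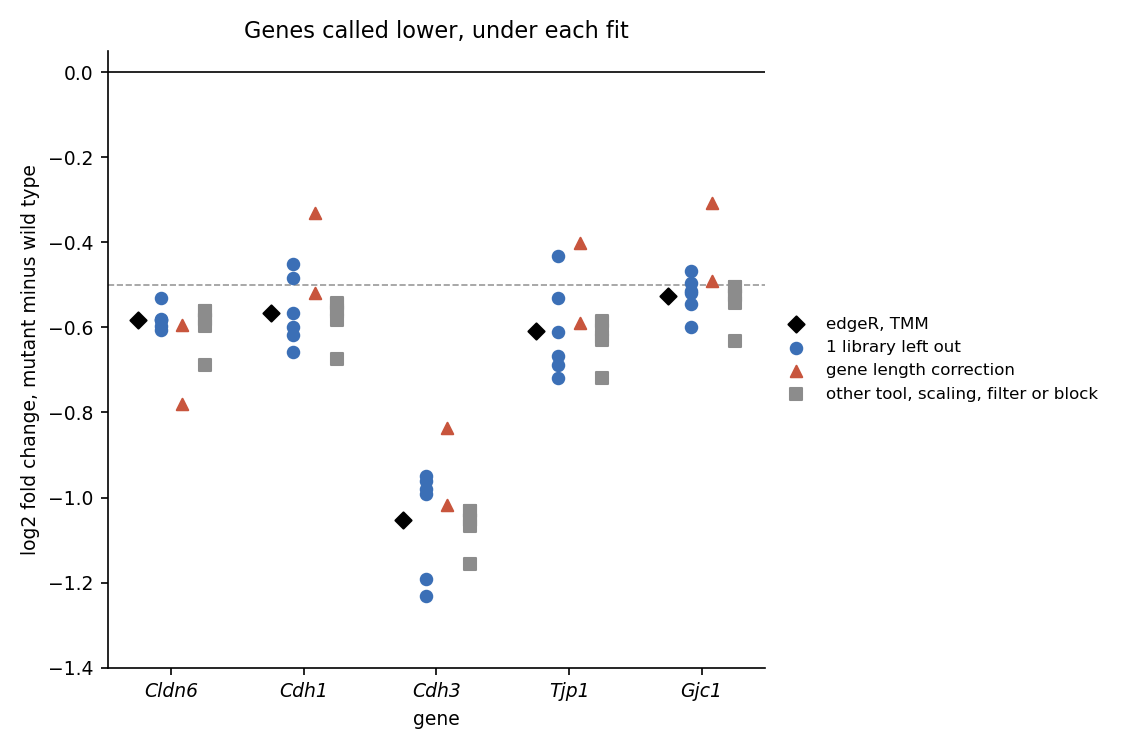
Log2 fold change of the 5 called junction genes by edgeR with TMM (black diamonds), without each library in turn (blue circles), with either gene-length correction (red triangles) and with other tools, scalings, filters or the replicate block (grey squares), with a dashed line at -0.5, the size required. All points are below 0, every point of *Cldn6* and *Cdh3* lies below the line, and *Cdh1*, *Tjp1* and *Gjc1* have points above it.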

How the data were processed

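RNA from 500 sorted EpCAM-positive cells per library was amplified with the SMARTer v4 kit for 15 PCR cycles. The authors mapped reads to mm9 with STAR 2.5.2b, assigned uniquely mapping reads to a UCSC gene model with featureCounts 1.5.1 and deposited raw read counts per gene, 1 file per library, the strand setting not being stated. DESeq2 1.18.1 and deepTools are also named in the submitters' processing notes.

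The test was that of edgeR 4.0.16 under R 4.3.3 (TMM factors, filterByExpr, quasi-likelihood F test on genotype, Benjamini-Hochberg adjustment), with a biological coefficient of variation of 0.144. All p values in the text are from this fit unless another is named. They set the difference between the groups against the variation between the 3 libraries of a group, estimated with information shared across genes. As pooling is not given, that variation cannot be taken as variation between embryos. The count minimum of 50 stood in for the study's stated RPKM minimum of 50, which was an alternative. RPKM used exon lengths of an mm9 annotation (22020 of 23366 genes, all 87 junction genes), which differs from the gene model of the counts. Amplified reads carry no molecular identifiers, so floors cover counting error only.

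The junction genes, partner genes and marker lists were chosen with earlier results of these data known. Named are called genes, the 4 most abundant and the most changed tested gene of each junction type, genes with an adjusted p under 0.05, and called partner genes. Others are named as background, as neighbours or for completeness, after their values were seen. Alternatives were DESeq2 1.42.0, RLE factors, library size alone, other filters and thresholds, a loess correction for exon length (span 0.5, also centred), a replicate block and leaving out each library. No tested junction gene had a near-identical copy (BLAST+ 2.17.0, 95% identity or more over 50% or more of a transcript). Same-numbered libraries did not deviate together (correlations 0.0097, -0.045 and -0.018), so numbers were not taken as pairs. Promoters came from RefSeq and were placed in mm9 by exact match. Proteins were not analysed here, and the values of a few of the junction genes are not reported here, though they are counted in the totals.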

Additional observations from a re-analysis of the deposited data

How the results depend on the processing

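The 5 junction genes called lower were the same 5 with RLE factors, with no filter, with a filter at a mean of 50 counts, with DESeq2, with an adjusted p under 0.05 and with the replicate block, which gave 5 lower and 0 higher (no pairing of libraries by number is stated). In that order, these were 5 of 39, 71, 33, 87, 39 and 39 junction genes. The shares of all genes in the fit called lower were 5.52%, 5.23%, 7.91%, 3.38%, 9.42% and 5.53%, and 1.75% to 3.49% were called higher. Library size alone gave 6, adding *Jup*, beside 7.66% of all tested genes called lower, and moved the median of all tested genes from -0.04 to -0.15. The gene-length correction left 1 (*Cldn6*) and its centred form 2 (*Cldn6* and *Cdh1*) of the 39, and moved that median to 0.09 and -0.09. Beside these, 3.27% and 5.62% of all tested genes were called lower, so the junction genes no longer stood above the share of all tested genes. A log2 fold change of at least 1 left 1 (*Cdh3*), and an RPKM of at least 50 left 1 (*Cldn6*), beside 2.27% and 0.232% of all tested genes called lower. With no minimum fold, 1 gene was higher (*Cldn7*), beside 7.22% of all tested genes. Leaving out single libraries gave 1 to 5 lower, namely 3, 2 and 5 without wild type 1, 2 and 3 and 3, 1 and 3 without mutant 1, 2 and 3, and 0 higher each time. In the same order, the shares of all tested genes called lower were 3.18%, 3.19% and 6.79%, and 4.10%, 3.61% and 4.24%. Those called higher were 2.04% to 4.04%. The 5 without wild type 3 were *Cdh1*, *Cldn6*, *Jup*, *Tjp1* and *Tjp3*. These fits have fewer samples, and the cause of the other losses was not tested.

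Small changes turned sign in some fits. *Cldn3* was -0.0032 and *Gjb1* -0.00030 with library size alone, and -0.14 and -0.062 with the centred length correction. *Dsc2* was 0.11 and *Marveld2* 0.052 with the length correction. *Pkp2* was -0.10 with library size alone, -0.0044 with the filter at 50 counts, and -0.15 to 0.13 without single libraries. Of 429 alternative values for the 24 named genes, 385 kept direction and side of the threshold, 30 lost the call, 4 gained it and 10 turned sign. The adjusted p over all fits was 4.47e-15 to 3.95e-04 for *Cldn6*, 2.44e-06 to 0.0142 for *Cdh1*, 0.00198 to 0.0298 for *Cdh3*, 5.58e-04 to 0.0496 for *Tjp1* and 0.00115 to 0.0704 for *Gjc1*.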

Other observations

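Some junction genes lie next to each other, and their values went both ways. *Cdh3* and *Cdh1*, 46442 bases apart on chromosome 8 and read the same way, were both called lower, at log2 fold changes of -1.05 and -0.57. *Ocln* and *Marveld2*, 43238 bases apart on chromosome 13, stood at 0.19 and -0.12, and *Cldn4* and *Cldn3*, 39279 bases apart on chromosome 5 and on opposite strands, at 0.21 and 0.10, none of these called. In the desmosomal cadherin cluster on chromosome 18, *Dsc2* and *Dsg2* were tested while *Dsc1*, *Dsc3*, *Dsg1a*, *Dsg1b* and *Dsg3* had 0 counts in every library. Among the connexins *Gjb2* was at 0.87 where its neighbours *Gja3* and *Gjb6* were too low to test. The neighbours were picked by position after the values were seen, and no test was made of them.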
